A study of Mus musculus with 46 samples.

Results

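Phgdh, Psat1, Shmt2, Asns and Trib3, 5 of the 7182 genes of the deposited RNA table, were followed through every RNA group of a study of Rbbp5 in mouse embryos. They were taken by name, as enzymes of serine, glycine and asparagine synthesis and a stress gene of the same response, and the table holds all 5. Rbbp5 is a core subunit shared by the enzyme complexes that put methyl groups on lysine 4 of histone H3. Knockout (KO) embryos came from zygotes injected either with guide RNA against Rbbp5 and Cas9 mRNA, in wild-type zygotes, or with Cre mRNA, in Rbbp5 flox/flox zygotes. The sources used here give neither the method behind each library nor the strain. The groups used were 7 KO and 7 wild-type (WT) inner cell masses (ICM) of single embryonic day (E) 3.5 blastocysts, 3 KO and 7 WT single E4.5 epiblast cells, 2 KO and 1 WT single E4.5 primitive endoderm cells, and 3 KO and 3 WT epiblasts of single E5.5 embryos. All preimplantation embryos were cultured in KSOM medium, with ICM and E4.5 tissues isolated by immunosurgery, and E5.5 epiblasts were cut by hand from embryos that had been transferred to pseudo-pregnant mice at the 2-cell stage. Values are FPKM (a read count corrected for the length of the transcript and the size of the library), so levels of different genes can be set side by side per length. Nothing in the labels says how many litters or injection days the embryos of a group came from, so p-values measure the spread between these libraries.

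Serine is made from the glycolytic intermediate 3-phosphoglycerate. Phgdh (phosphoglycerate dehydrogenase) catalyses the first step, Psat1 (phosphoserine aminotransferase) the next, using glutamate as nitrogen donor, and Psph the last. Shmt2, the mitochondrial serine hydroxymethyltransferase, turns serine into glycine and passes a one-carbon unit to folate, which feeds nucleotide synthesis and the regeneration of S-adenosylmethionine, the methyl donor of histone methyltransferases. Asns makes asparagine from aspartate and glutamine. When amino acids are short, the kinase GCN2 (Eif2ak4) phosphorylates eIF2alpha, translation of Atf4 mRNA rises, and the ATF4 protein activates genes of this kind, Asns among them, together with Trib3, a pseudokinase that acts back on the ATF4 and CHOP pathway.

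ATF4 binds the C/EBP-ATF response element, whose core is TGATGNAA. In promoter windows of 250 bases before to 50 bases after each RefSeq start site (GRCm38.p6), this core was searched on both strands. It was present in the windows of Asns and Trib3 and not in those of Phgdh, Shmt2 or either Psat1 start site. Of all 32851 windows, 3.97% held it, and 2.75% of the 5528 table genes with a window had one. All 5 members lie on the minus strand: Phgdh at chr3:98313171-98339969, Psat1 at chr19:15905123-15925059, Shmt2 at chr10:127517123-127522444, Asns at chr6:7675165-7693209 and Trib3 at chr2:152337425-152344060. The 150 bases before the start sites of Asns (chr6:7693210-7693359) and Shmt2 (chr10:127522445-127522594) are printed because these genes changed in opposite directions at E5.5, and 30 bases around the Trib3 match (chr2:152344028-152344057) because it lies on the other strand, just inside the transcript. Capitals mark the core, which in Trib3 reads as its reverse complement, and each sequence runs 5′ to 3′ along the gene.
Asns: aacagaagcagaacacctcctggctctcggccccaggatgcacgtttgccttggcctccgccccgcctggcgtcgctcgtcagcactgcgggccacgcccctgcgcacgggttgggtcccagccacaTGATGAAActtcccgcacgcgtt
Shmt2: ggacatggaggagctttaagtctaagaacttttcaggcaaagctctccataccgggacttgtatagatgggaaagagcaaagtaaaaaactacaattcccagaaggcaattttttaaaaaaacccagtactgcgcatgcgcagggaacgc
Trib3: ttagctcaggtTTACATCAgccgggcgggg
The Asns core starts 23 bases before the start site. A match is a description of letters, not of a bound site.

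The labels were checked against marker genes before the members were compared. The targeted gene was not analysed here and gave no check on genotype. The 3 libraries labelled KO E5.5 epiblast went against their tissue label. Trophectoderm markers (11 in the table) summed to 1946 to 3397 FPKM in them, against 99.7 to 149 FPKM in WT E5.5 epiblasts, and 9 of the 10 tested were higher. Elf5, a trophoblast transcription factor, stood at 30.1 to 33.4 FPKM in KO and at most 0.0451 FPKM in WT, while Pou5f1, a pluripotency factor of the epiblast, stood at 4.57 to 19.9 FPKM in KO and 103 to 190.4 FPKM in WT. In the ICM the trophectoderm sum was 27.3 to 201 FPKM in KO and 55.9 to 1188 FPKM in WT, with 4 of the 8 tested markers lower and none higher. Gata2 was at 0 in every KO library and at most 0.0326 FPKM in WT, and Id2 had medians of 19.5 FPKM in KO and 11.1 FPKM in WT. KO E4.5 epiblast cells carried the epiblast markers (1374 to 2930 FPKM summed, against 1562 to 2428 FPKM in WT cells) with at most 25.1 FPKM of primitive endoderm markers. Primitive endoderm markers summed to 419 and 567 FPKM in the 2 KO primitive endoderm cells and 1439 FPKM in the WT cell. Epiblast markers summed to 332 to 674 FPKM in these KO cells and 1056 FPKM in the WT cell, where Sox2, Esrrb, Klf4, Klf2 and Prdm14 were at 0. Visceral endoderm markers summed to at most 28.3 FPKM in these KO cells and 856 FPKM in the WT cell. Trophectoderm sums of the primitive endoderm cells were 398 and 269 FPKM in KO and 1640 FPKM in WT, of which Dab2, a gene that primitive endoderm also expresses, gave 1384 FPKM, and Cdx2, Gata2 and Elf5 were at 0 in the WT cell. KO ICM libraries had 3628 to 5136 genes at 1 FPKM or more and WT ICM libraries 5110 to 5718, with KO 1, 4 and 6 the lowest. At E5.5 the numbers were 5457 to 5895 in KO and 5738 to 5805 in WT.

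In E3.5 ICM, the measured genes of serine synthesis, Phgdh and Psat1, and Shmt2 were lower in KO than in WT. Phgdh fell the furthest of the 5 members, to a mean of 16.0 ± 14.6 FPKM in KO, against 142 ± 123 FPKM in WT (SD, n = 7 each). Psat1, Shmt2 and Trib3 also fell, while Asns did not pass the test. The count of 4 of 5 members lower stands beside 24.9% of all 5443 tested genes called lower, 3.44% higher and 28.3% either way, and the median log2 change of all genes was -0.65. No member had groups without overlap, which 3.33% of all genes had with KO lower and 1.29% with KO higher. In single-embryo ICM libraries, fewer cells of a type and less RNA per cell cannot be told apart. The part of the lower trophectoderm markers in these changes was not tested.

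For Phgdh the KO ICM libraries held 0.917, 8.80 and 39.1 FPKM as lowest, median and highest, against 26.8, 110.2 and 349.6 FPKM in WT. Both groups were widely spread, and 5 of the 7 KO libraries lay below every WT library. The log2 change was -3.09 (SE 0.68, adjusted p = 0.00514 by limma), or -2.43 relative to the median of all genes. Psat1 ran from 53.0 FPKM through a median of 63.3 to 128 FPKM in KO, against 80.7, 213 and 425 FPKM in WT. It was the most abundant member in the ICM, and its KO libraries were close together, 4 of them below the WT range. Its mean was 82.5 ± 33.4 FPKM in KO and 219.9 ± 113 FPKM in WT (SD, n = 7 each), and the fitted change was -1.33 on the log2 scale (SE 0.33, adjusted p = 0.0085). Shmt2 had 0.0479, 1.77 and 13.35 FPKM in KO and 4.33, 10.7 and 20.5 FPKM in WT as lowest, median and highest. Its 5 lowest KO libraries lay under every WT library and the other 2 inside the WT range, and the fitted log2 change was -1.64 (SE 0.53, adjusted p = 0.0285).

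Asns, the asparagine synthetase, split the KO ICM libraries. KO 4 and 6 had 0.428 and 0.155 FPKM, while KO 1 had 34.8 FPKM, close to the highest WT value of 36.6 FPKM, and the other 4 lay between 6.48 and 23.1 FPKM. WT libraries ran from 7.37 to 36.6 FPKM with a median of 26.2 FPKM. The log2 change of -1.44 did not pass (95% interval -2.86 to -0.02, adjusted p = 0.111). Trib3 was at the bottom of the range: KO 3, 4 and 6 were listed at 0 and the others held 0.367, 1.59, 2.31 and 2.98 FPKM. Its WT libraries ran from 1.67 to 6.37 FPKM with a median of 2.92 FPKM. The groups overlapped in the top KO libraries, and the log2 change was -1.21 (SE 0.40, adjusted p = 0.0314).

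**Figure D1:**
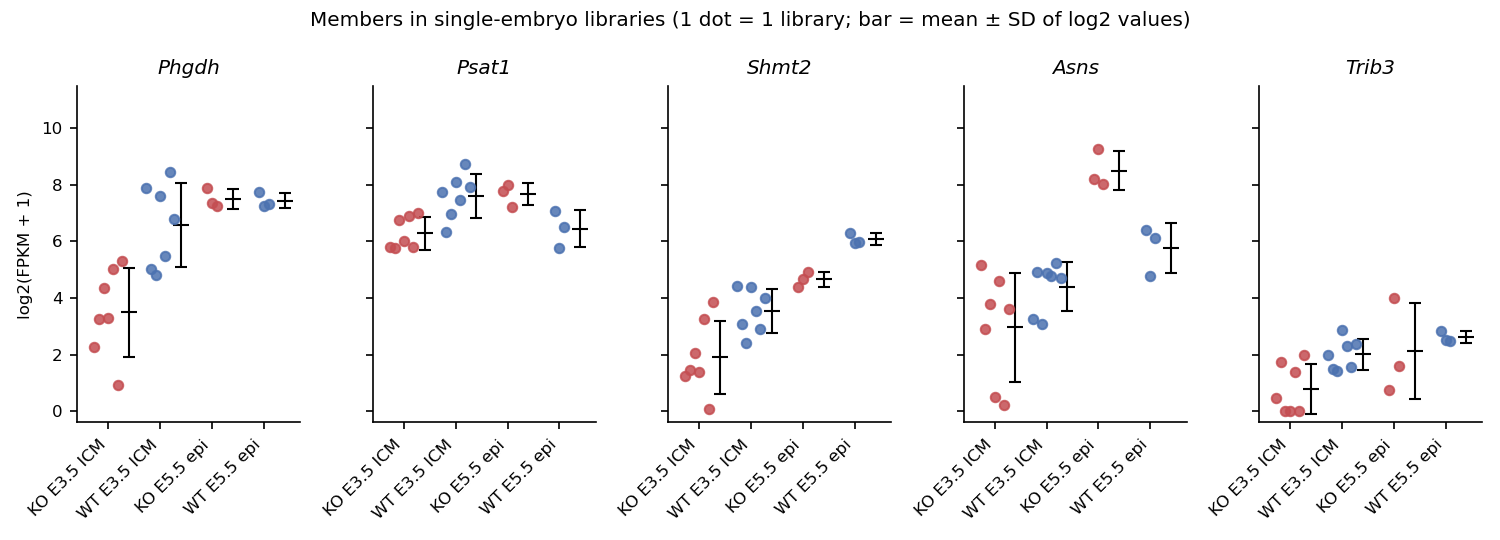
Level of each member on the log2(FPKM + 1) axis in single-embryo libraries, KO in red and WT in blue, with the mean ± SD of the log2 values beside each group (n = 7 per ICM group and 3 per E5.5 group). Phgdh is low in KO ICM and level between genotypes at E5.5, whereas Asns is high in the 3 libraries labelled KO E5.5 epiblast, at 259.5 FPKM or more.

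The ICM calls ended without the KO libraries with the fewest detected genes, and with a covariate for detected genes. The fit without those libraries also rests on fewer KO embryos. KO 4 and KO 6 lay below the WT minimum for all 5 members and KO 1 for 4, whereas KO 7 was inside the WT range for all 5 and KO 5 for 4. KO 5 and 7, with 5136 and 5022 detected genes, came nearest to the WT libraries, and KO 2, with 4882 genes, still had 4 members below the WT range. Without KO 1, 4 and 6, a choice made after the data were seen, none of the 5 was called: Phgdh had a log2 change of -2.09 (adjusted p = 0.0662), Psat1 -1.01 (0.0944), Shmt2 -0.88 (0.264), Asns -0.69 (0.332) and Trib3 -0.73 (0.287). All 5 changes were still negative, beside a median of -0.34 over all genes, and 2 members were under 0.05 unadjusted. With a covariate for detected genes in limma, 0 members and 0 genes were called, 0 members and 314 genes being under 0.05 unadjusted, and the Shmt2 change was 0.03. Detected genes hardly overlapped between KO ICM (3628 to 5136) and WT ICM (5110 to 5718), so this fit cannot tell genotype from detection.

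Scaling between libraries also set which members were called. Quantile normalization moved the median change of all genes from -0.65 to 0.03 and kept Phgdh and Psat1 as calls, with log2 changes of -2.62 and -1.11. Scaling to the median ratio moved the median to -0.26 and kept only Phgdh, at -2.58 (adjusted p of Psat1 0.0903). Leaving out any 1 of the 14 libraries left Phgdh and Psat1 called each time. Shmt2 lost its call without WT 1, 4 or 7 or KO 1, 4 or 6 (adjusted p 0.0503 to 0.065), and Trib3 without WT 1, 4, 5 or 7 or KO 1, 3, 4 or 6 (adjusted p 0.0517 to 0.074).

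**Figure D2:**
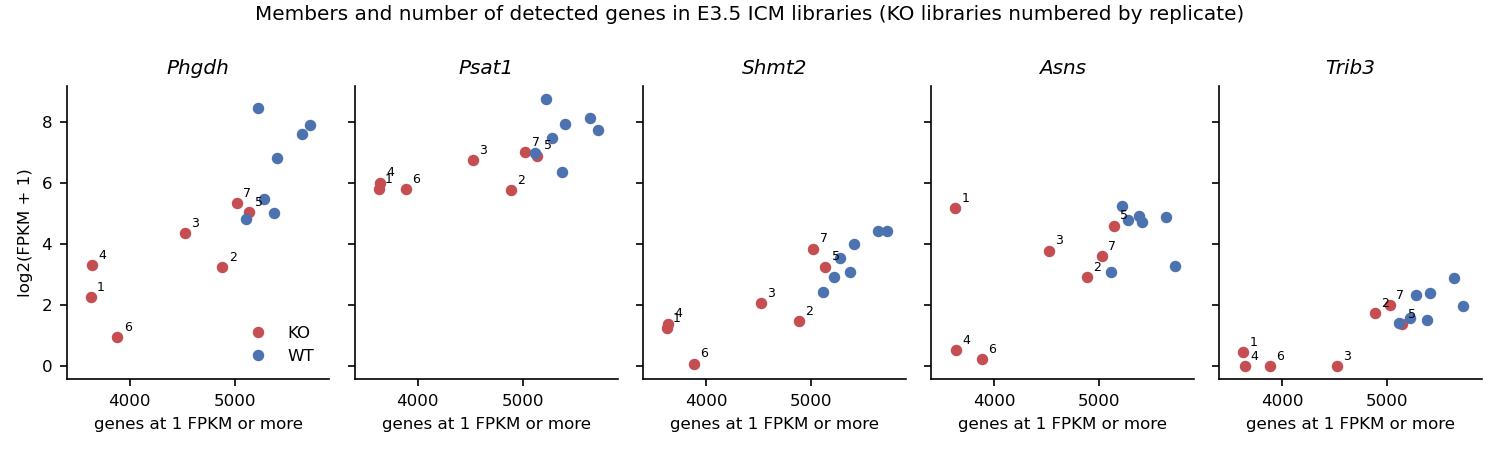
Level of each member (log2(FPKM + 1), vertical axis) against the detected genes, those at 1 FPKM or above (horizontal axis) in each E3.5 ICM library, KO in red with its replicate number and WT in blue. KO 1, 4 and 6, at 3628 to 3883 genes, lie below every WT library for Phgdh, Psat1, Shmt2 and Trib3. Asns in KO 1, at 34.8 FPKM, lies near the top of the WT range of 7.37 to 36.6 FPKM.

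In the pathway lists, calls in KO ICM were all lower, read against 24.9% of all tested genes called lower and an all-gene median of -0.65. Of serine and glycine synthesis genes, 5 of 10 tested fell, the members Phgdh, Psat1 and Shmt2 with Dld, a subunit of the glycine cleavage system (log2 change -1.82, adjusted p = 0.0166), and Shmt1, the cytoplasmic counterpart of Shmt2 (-1.89, adjusted p = 0.0492). The list's median was -1.10, and without the 3 members 2 of 7 genes fell, near the share of all genes, with a median of -0.78. The folate one-carbon cycle had 5 of 14 lower, led by Folr1, a folate receptor, at 147 ± 70.5 FPKM in KO and 307 ± 58.4 FPKM in WT (SD, n = 7 each), with Mtr, the methionine synthase, at -1.46 and Mthfd1, a cytoplasmic folate enzyme, at -1.29. Mthfd2, which acts after Shmt2 in the mitochondrion, had 4.78 ± 3.14 FPKM in KO and 9.06 ± 5.03 FPKM in WT (SD, n = 7 each) and was not called (adjusted p = 0.187). Among genes of asparagine, aspartate, glutamine and proline synthesis other than Asns 3 of 10 fell, also near that share, among them Glul, the glutamine synthetase (-1.87), and Got1, an aspartate aminotransferase (-1.47). Psph was not analysed here.

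Neither Atf4 nor Ddit3, the transcription factor genes of the stress pathway, passed the test in the ICM. Atf4 mRNA averaged 112 ± 27.3 FPKM in KO ICM and 116 ± 32.9 FPKM in WT ICM (SD, n = 7 each), a log2 change of -0.04 (adjusted p = 0.888). Ddit3, which encodes CHOP, ran from 0 to 86.5 FPKM in KO and 6.63 to 34.6 FPKM in WT, with medians of 13.2 and 10.9 FPKM in KO and WT (adjusted p = 0.943). ATF4 control acts largely on translation, which mRNA levels do not measure. Of the ATF4 pathway list 5 of 8 tested fell, or 4 of 7 without the member Trib3, beside 24.9% of all tested genes lower. Among them were Cbs, which joins serine to homocysteine (-2.49), Sesn2, a stress-induced inhibitor of mTORC1 signalling (-2.16), and Sqstm1, an autophagy receptor (-1.29). Of the eIF2alpha kinases and their partners 4 of 11 fell, beside the same 24.9%. They included the subunit genes Eif2s3x (-1.32) and Eif2b4 (-1.33) and the kinase Eif2ak1 (-1.16). Eif2ak4 was below the filter on low values in the ICM, with at most 1.41 FPKM in KO and 1.48 FPKM in WT.

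Cytoplasmic aminoacyl-tRNA synthetases, which charge tRNAs with amino acids, were the list with the most calls in KO ICM, 15 of 19 lower and none higher, with a median of -1.39. Gars, the glycyl-tRNA synthetase, fell by 2.08 on the log2 scale to 15.8 ± 8.43 FPKM in KO, against 66.2 ± 20.6 FPKM in WT (SD, n = 7 each, adjusted p = 0.00184), and Wars and Mars, for tryptophan and methionine, had changes of -2.37 and -1.97. Of all tested genes, 24.9% were lower and the median was -0.65. With quantile normalization 7 of the 19 remained called lower, with median ratio scaling 8, and without KO 1, 4 and 6 there were 11. None was higher in any of these settings. All genes called either way in them were, in that order, 708 of 5443, 882 of 5443 and 405 of 5549. Amino acid transporters had 3 of 7 lower: Slc1a5 (-1.78), Slc3a2, the heavy chain of several transporters (-1.03), and Slc7a7 (-0.98). The other lists kept fewer calls under those settings: serine and glycine synthesis had 2 lower and 1 higher with quantile normalization, 1 lower and 1 higher with median ratio scaling, and none without KO 1, 4 and 6. The lists were chosen with results of these data known.

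In libraries labelled KO E5.5 epiblast, Asns and Psat1 rose and Shmt2 fell, while Phgdh and Trib3 did not pass the test. Asns was the largest change, at 392 ± 202 FPKM in KO and 60.0 ± 30.0 FPKM in WT (SD, n = 3 each). The count of 3 of 5 members stands beside 34.1% of 5956 tested genes called either way, 15.6% higher and 18.5% lower, with a median log2 change of -0.07. These 3 members also had groups that did not overlap, which 22.6% of all genes had with KO higher and 26.6% with KO lower. The trophectoderm markers given above rose in the same 3 libraries (median log2 change 3.75 over 10 tested), while 5 of 7 tested epiblast markers fell and 1 rose, Esrrb, at 1.35 to 5.59 FPKM in KO and at most 0.0739 FPKM in WT. Of the post-implantation epiblast markers 4 of 6 fell. The part of that difference in the members' changes was not tested.

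Asns had 293, 624.6 and 259.5 FPKM in the 3 KO E5.5 libraries, against 84.0, 26.4 and 69.5 FPKM in WT. The lowest KO value was above the highest WT value, and the log2 change was 2.73 (SE 0.47, adjusted p = 0.00392 by limma). Psat1 stood at 220.1, 256 and 149 FPKM in KO and 133, 54.0 and 90.1 FPKM in WT. Its groups came close, with KO 3 only a little above WT 1, and the log2 change was 1.22 (SE 0.32, adjusted p = 0.0176). Shmt2, the enzyme that uses the serine made by the pathway, had 20.1, 24.6 and 29.2 FPKM in KO, against 78.6, 60.6 and 63.0 FPKM in WT. This was the tightest contrast of the 5, with a mean of 24.6 ± 4.54 FPKM in KO and 67.4 ± 9.80 FPKM in WT (SD, n = 3 each), and it fell by 1.42 on the log2 scale (SE 0.21, adjusted p = 0.000788).

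Phgdh overlapped between genotypes, at 239, 162 and 152 FPKM in KO and 213, 151 and 161 FPKM in WT. Its log2 change of 0.06 had a 95% interval of -0.41 to 0.53 (adjusted p = 0.845). Trib3 was uneven in KO, at 0.698, 15.1 and 2.01 FPKM, and even in WT, at 6.20, 4.78 and 4.57 FPKM. KO 2 stood above and KO 1 and 3 below all WT libraries, and the log2 change of -0.50 had an interval of -2.14 to 1.14 (adjusted p = 0.628). KO 2 was also the library with the highest Asns. Leaving it out gave a Trib3 change of -1.44 (adjusted p = 0.01) and ended the call of Psat1 (adjusted p = 0.06), as did leaving out KO 1 (0.0613) or WT 3 (0.0537). When the 4 embryo groups shared 1 estimate of the spread, none of the 5 was called, with adjusted p of 0.0851 for Asns, 0.137 for Psat1 and 0.273 for Shmt2, and 2 members were under 0.05 unadjusted.

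**Figure D3:**
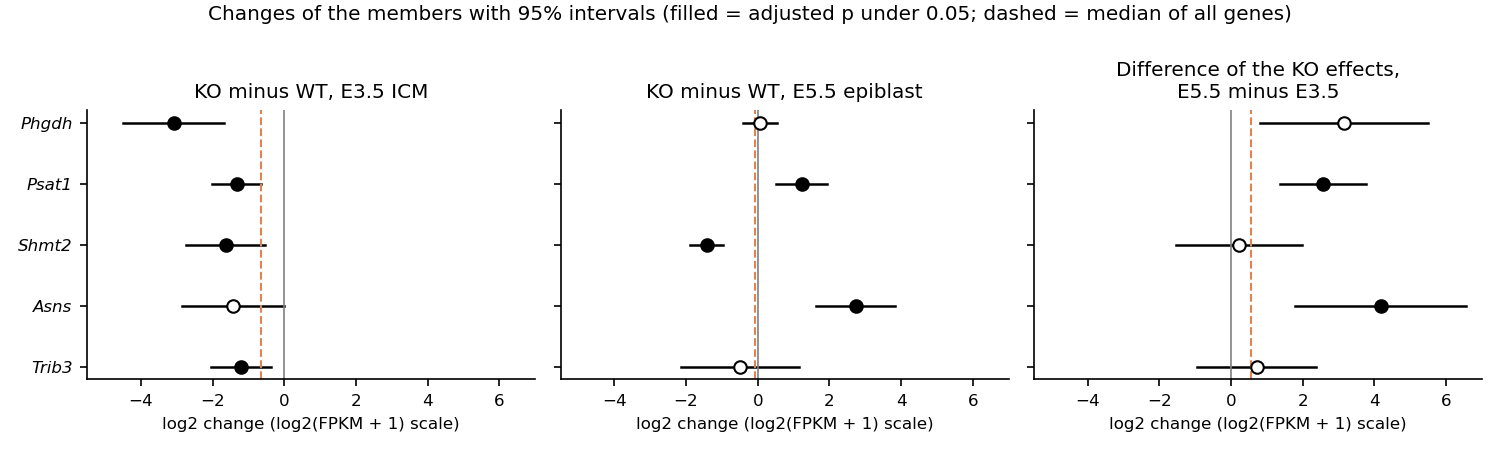
Log2 change of each member with its 95% interval (horizontal axis, log2(FPKM + 1) scale) for KO minus WT in E3.5 ICM and in E5.5 epiblast and for the difference of the KO effects. Filled points passed an adjusted p of 0.05 and the dashed line is the median of all tested genes. Shmt2 is negative at both stages, while Asns is at -1.44 in the ICM and 2.73 at E5.5.

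Within the pathways at E5.5, calls went both ways, read against 15.6% of all tested genes called higher and 18.5% lower. Serine and glycine synthesis had 3 of 9 tested higher, Psat1, Gcsh, a carrier protein of the glycine cleavage system (log2 change 1.16, adjusted p = 0.00147), and Srr, the serine racemase (1.36), with Shmt2 the 1 lower. The list's median was 0.42, and without the members 2 of 6 genes were higher and 0 lower. Asparagine, aspartate, glutamine and proline synthesis had 3 of 11 higher, Asns with Glul, at 105 ± 50.02 FPKM in KO and 29.4 ± 2.72 FPKM in WT (SD, n = 3 each), and Got1 (0.58). The list had 2 lower, among them Pck2, the mitochondrial phosphoenolpyruvate carboxykinase (-2.49). Without Asns, 2 of its 10 genes were higher and 2 lower, near the shares of all genes. Folr1 rose by 2.996 on the log2 scale, the 1 folate gene of 13 tested that was called higher, and 1 was called lower. Mthfd2 was uneven in KO, at 66.9 ± 59.2 FPKM, against 56.1 ± 5.27 FPKM in WT (SD, n = 3 each, adjusted p = 0.903).

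The ATF4 list had 1 of 9 tested higher at E5.5, Ddit3, at 6.35 ± 4.52 FPKM in KO and 0.926 ± 1.32 FPKM in WT (SD, n = 3 each, log2 change 1.94, adjusted p = 0.0239), and 1 lower, Cth, a transsulfuration enzyme (-1.21). Atf4 mRNA averaged 53.5 ± 39.0 FPKM in KO and 73.5 ± 22.5 FPKM in WT (SD, n = 3 each, adjusted p = 0.315), and Eif2ak4 ran from 2.78 to 4.72 FPKM in KO and 2.51 to 3.20 FPKM in WT (adjusted p = 0.458). No eIF2alpha kinase or partner was called among 12, where median ratio scaling called 2 higher and quantile normalization 1. Amino acid transporters divided, with Slc3a2 (1.27), Slc7a1 (1.32) and Slc7a6 (0.91) higher and Slc1a5 (-1.68), Slc7a7 (-1.72), Slc1a4 (-1.43) and Slc7a3 (-2.92) lower of 9 tested. Of the 19 tRNA synthetases, Vars (-1.37) and Mars (-0.66) fell and none rose, with a median of -0.06. These list counts stand beside 15.6% of all tested genes called higher and 18.5% lower.

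**Figure D4:**
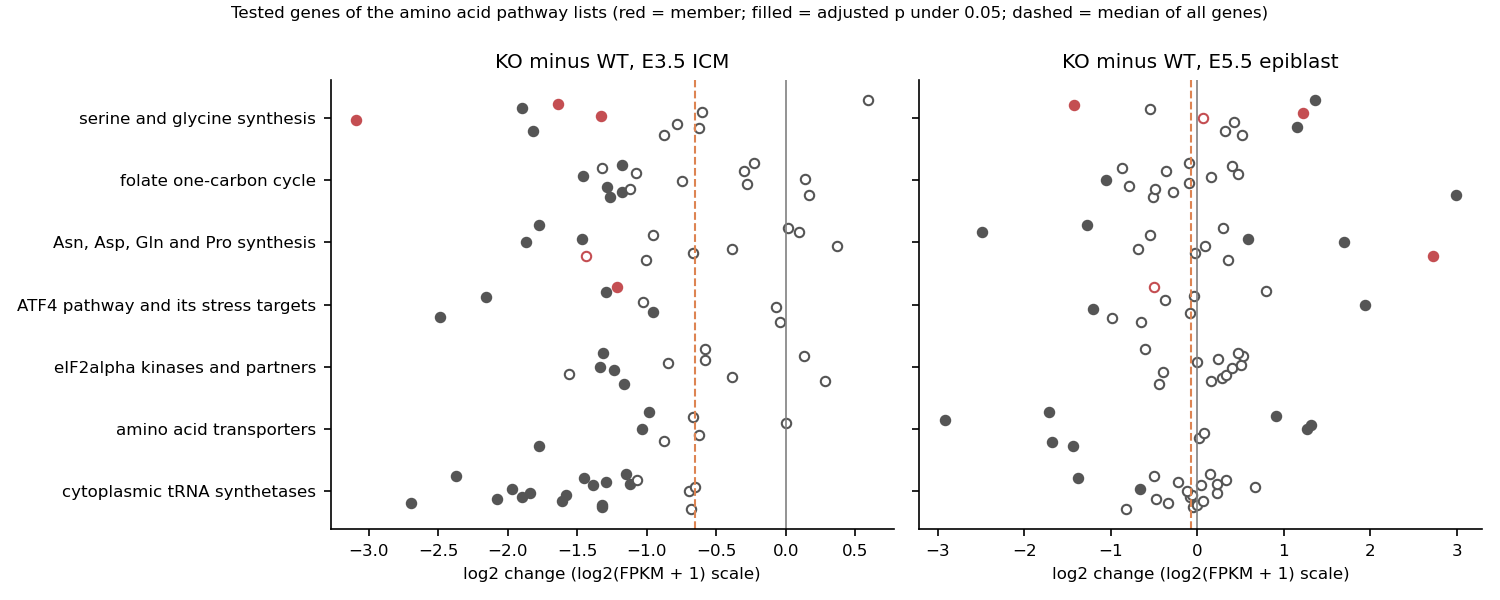
Log2 change, KO minus WT, of each tested gene of 7 amino acid pathway lists (rows) in E3.5 ICM and E5.5 epiblast, with members in red, filled points past an adjusted p of 0.05 and the median of all genes dashed. In the ICM the tRNA synthetases lie left of 0 as a group (15 of 19 lower), and at E5.5 they lie around 0 while Asns and Folr1 stand far to the right.

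The KO effect differed between the stages for Asns and Psat1. In 1 fit of the 20 embryo libraries, the effect at E5.5 minus that at E3.5 was 4.17 for Asns (SE 1.16, adjusted p = 0.0187) and 2.55 for Psat1 (SE 0.58, adjusted p = 0.0053). These 2 of 5 members stand beside 14.0% of 5917 genes called either way, 10.6% higher and 3.38% lower, with a median of 0.56 over all genes. Phgdh had a like estimate of 3.15 that did not pass (95% interval 0.82 to 5.49, adjusted p = 0.0634). Without KO 1, 4 and 6 of the ICM both calls stood (Asns 3.42, Psat1 2.24). With a pseudocount of 0.1 (adjusted p = 0.0691) or the detected-gene covariate (0.121) that of Asns ended and that of Psat1 stood, whereas Phgdh passed as well with a pseudocount of 5 (2.65, 0.0471) and with array weights (2.78, 0.00985). The call of Asns ended without WT E5.5 2 (adjusted p = 0.0731) or KO E5.5 2 (0.0616), and that of Phgdh appeared without WT ICM 2, WT ICM 3, KO ICM 5 or KO ICM 7 (0.032 to 0.0442). For Shmt2 the difference was 0.21 (interval -1.54 to 1.97) and for Trib3 0.71 (interval -0.95 to 2.37). The sign for Shmt2 turned with scaling, to -0.78 with quantile normalization and -0.17 with the median ratio.

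Folr1, Glul, Got1, Slc3a2, Slc7a6, Gcsh, Eif2s3x, Eif2b4 and Gars also had a higher KO effect at E5.5 than in the ICM, with differences from 1.57 for Slc7a6 to 4.17 for Folr1. Higher refers to the signed change. Gars, Eif2s3x and Eif2b4 were lower in KO ICM and were not called at E5.5, where their log2 changes were -0.48, 0.47 and 0.51. Pck2 and Slc7a3, an arginine and lysine transporter, had a lower one, at -2.59 and -2.92. All these differences compare libraries of different tissue, culture and collection as well as stage, which cannot be told apart here, and the E5.5 KO libraries carry the trophectoderm markers described above.

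Development from E3.5 to E5.5 was described in each genotype, using the libraries already compared above. In WT, Shmt2 rose by 2.55 on the log2 scale (SE 0.41, adjusted p = 0.000151), to 67.4 ± 9.80 FPKM at E5.5 (n = 3), against 12.1 ± 6.59 FPKM in ICM (n = 7; both SD), with no overlap. Asns rose by 1.37 (adjusted p = 0.0296) and Psat1 fell by 1.16 (adjusted p = 0.0298), both with overlapping groups. Phgdh and Trib3 had changes of 0.86 and 0.62 that did not pass (adjusted p 0.306 and 0.148). The 3 of 5 called stand beside 56.3% of 6022 genes, 37.3% higher and 18.9% lower, and the median was 0.43. No overlap was found for 33.8% of genes with E5.5 higher and 15.9% with E5.5 lower. Asns lost its call without WT E5.5 1 (0.152) or 3 (0.12) and with quantile normalization (0.0747) or median ratio scaling (0.107), and Psat1 without WT ICM 4 (0.0515) or 7 (0.051) or WT E5.5 2 (0.169) or 3 (0.0725).

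In KO, Asns rose by 5.54, Phgdh by 4.01, Shmt2 by 2.76 and Psat1 by 1.39 (adjusted p 0.000446, 0.00106, 0.0062 and 0.00603), each with E5.5 libraries above all ICM libraries. These 4 of 5 members stand beside 48.5% of 5604 genes called, 39.8% higher and 8.67% lower. Without overlap were 37.8% with E5.5 above ICM and 7.01% with E5.5 below, and the median was 1.08. Trib3 had a change of 1.33 (adjusted p = 0.117). Median ratio scaling ended the call of Psat1 (0.49, adjusted p = 0.29), and leaving out any 1 library ended none. With the detected-gene covariate only Asns was called (4.15, adjusted p = 0.0469), and Phgdh (1.86, 0.148), Shmt2 (0.93, 0.441) and Psat1 (0.76, 0.264) were not. Detected genes did not overlap between KO ICM (3628 to 5136) and KO E5.5 (5457 to 5895), so that fit cannot tell stage from detection. In the same comparison 9 of 10 tested trophectoderm markers were higher at E5.5 (median 4.73), and their part in the members' changes was not tested. By mean level over the 4 embryo groups, Phgdh was lowest in KO ICM, which overlapped WT ICM, and its other 3 groups overlapped too. Psat1 was highest in WT ICM and KO E5.5, which overlapped, with lower means in KO ICM and WT E5.5, which overlapped too. WT ICM also overlapped KO ICM and WT E5.5, and only KO E5.5 lay above both. Shmt2 ran from KO ICM through WT ICM and KO E5.5 to WT E5.5, and only the top step, from KO to WT at E5.5, was free of overlap. Asns ran from KO ICM through WT ICM and WT E5.5 to KO E5.5, where again only the last step was free of overlap, and Trib3 groups all overlapped with their neighbours.

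In WT embryos the pathway lists differed in how many genes rose with development, beside 37.3% of all genes called higher and 18.9% lower. Serine and glycine synthesis had 2 of 10 higher and 3 lower (median 0.13), the folate cycle 6 of 14 higher and 2 lower, and eIF2alpha kinases and partners 5 of 12 higher and 2 lower. The mitochondrial folate genes Mthfd2 (log2 change 2.71) and Mthfd1l (3.25) and the mitochondrial serine transporter Sfxn1 (1.54) rose with Shmt2, whereas Folr1 fell by 4.24, to 16.3 ± 7.83 FPKM at E5.5 (n = 3), against 307 ± 58.4 FPKM in ICM (n = 7; both SD). Gcsh fell by 1.30 and Srr by 2.33. Asparagine, aspartate, glutamine and proline synthesis had 8 of 11 higher, Pycr1 by 3.57, Pck2 by 2.39 and Got2 by 1.91, with Glul and Got1 lower. Among transporters 6 of 8 rose, Slc7a3 by 7.10 and Slc38a2 by 4.54. The ATF4 list had none of 9 higher and 4 lower, Ddit3 by 3.09, Gdf15 by 1.64, Cth by 1.11 and Atf4 by 0.65 (adjusted p = 0.0488), while Eif2ak4 rose by 1.37. Of the 19 tRNA synthetases 16 rose in WT and all 19 in KO, with medians of 1.56 and 2.88, and with median ratio scaling 14 and 16 did.

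In single E4.5 cells no test was made, because the labels name no embryo for a cell and each group then counts as 1 sample. Trib3 separated the genotypes in these cells: every one of the 5 KO cells, of either lineage, was at 0.312 FPKM or less and every one of the 8 WT cells was at 12.0 FPKM or more. Asns was abundant in all 13 cells, from 126 to 1208 FPKM. Among genes past a log2 ratio of means of 2 in size, on the log2(FPKM + 1) scale, were 3 of the 5 members in epiblast cells, Phgdh, Psat1 and Trib3, all lower in KO, where 17.9% of 5872 genes were lower and 7.43% higher by that size. The median over all genes was -0.23. KO cells of the epiblast had 3026 to 3628 detected genes and WT cells 3878 to 4682, and the part of this gap was not tested.

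Trib3 in epiblast cells had 0.188, 0.0949 and 0.0949 FPKM in KO, against 12.0, 104 and 221 FPKM as lowest, median and highest in WT. The groups were far apart, with a log2 ratio of -6.61, which ran from -8.91 with a pseudocount of 0.1 to -4.47 with 5. Low values of the 3 KO cells come in steps, and in steps KO 1 held 2.00 times as much Trib3 as KO 2 and as KO 3, so these values may stand for as few as 1 or 2 reads or fragments. Psat1 had 26.3, 33.1 and 66.3 FPKM in KO and 108, 232 and 560.0 FPKM as lowest, median and highest in WT. These groups did not overlap either (log2 ratio -2.69). Groups without overlap were found for 3.99% of genes with KO lower and 2.88% with KO higher.

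Phgdh divided the KO epiblast cells, with 109, 0.891 and 0.512 FPKM, against 67.7, 129.9 and 506 FPKM as lowest, median and highest in WT. KO 1 was within the WT range and the other 2 far below it. The log2 ratio was -2.30, and without KO 1, the highest KO cell, it was lower still, at -6.77. Without KO 2, KO 3 or WT 2 it was -1.73, -1.73 and -1.81. Shmt2 overlapped, at 42.3, 88.4 and 53.3 FPKM in KO and 71.7, 135 and 231 FPKM in WT (log2 ratio -1.20). Asns was high in KO 1 and 2, at 1099 and 593 FPKM, and at 229.9 FPKM in KO 3. The WT cells had 126, 216 and 379 FPKM as lowest, median and highest, so only KO 3 lay inside the WT range (log2 ratio 1.49).

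In primitive endoderm cells Trib3 stood at 0.312 and 0.198 FPKM in KO and 298 FPKM in the WT cell. Phgdh had 60.5 and 0.404 FPKM in KO and 588 FPKM in WT, and Shmt2 0.343 and 94.5 FPKM in KO and 455 FPKM in WT. The low value of each enzyme came from a different KO cell. Psat1 was at 424 and 631 FPKM in KO and 244 FPKM in WT, and Asns at 537 and 1208 FPKM in KO and 846 FPKM in WT. With log2 ratios of -7.90, -4.23 and -3.24, Trib3, Phgdh and Shmt2 were past the fold, beside 17.9% of 4695 genes lower and 31.6% higher, and a median of 0.46. All but Asns had no overlap, Psat1 with KO higher and the other 3 with KO lower. With 2 cells against 1, 32.6% of genes had no overlap with KO lower and 30.1% with KO higher.

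**Figure D5:**
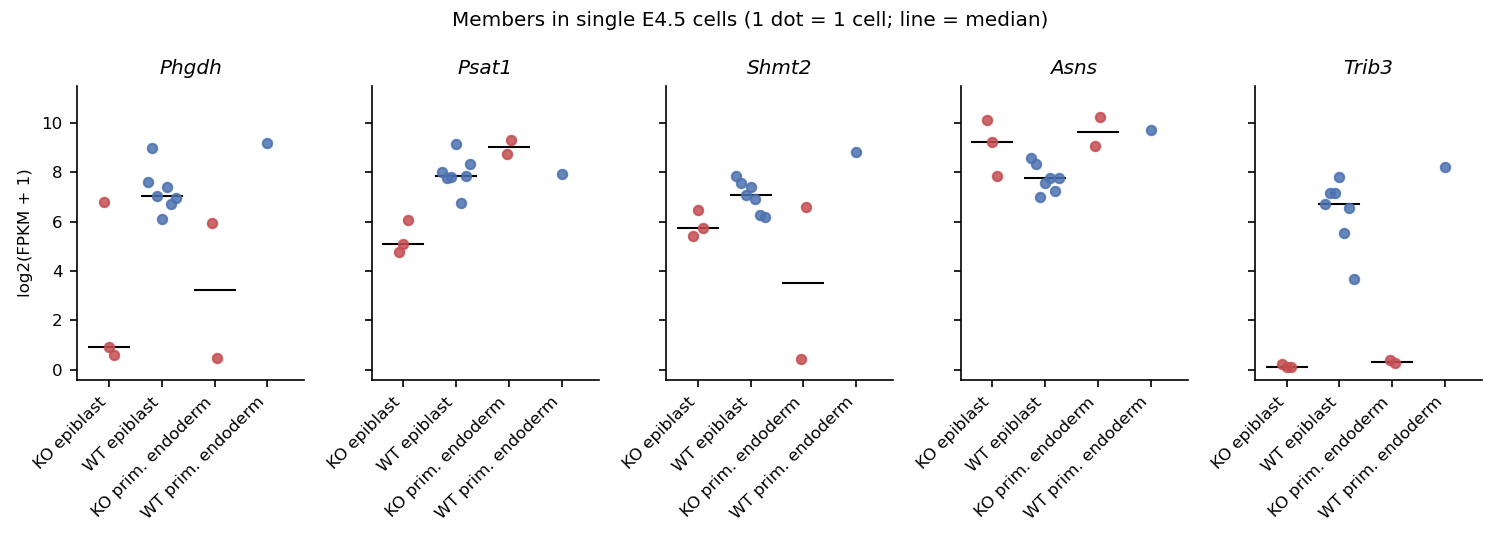
Level of each member (log2(FPKM + 1)) in each single E4.5 cell, KO in red and WT in blue, for epiblast (3 KO, 7 WT) and primitive endoderm (2 KO, 1 WT), with the median as a line. Trib3 lies near 0 in all 5 KO cells and Asns is at 126 FPKM or more in all 13 cells.

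Other pathway genes in KO epiblast cells were past the fold only downwards outside the serine list: 7 of 10 genes of asparagine, aspartate, glutamine and proline synthesis without Asns, 6 of 13 of the ATF4 list without Trib3, 6 of 10 transporters, 4 of 14 folate genes and 1 of 19 tRNA synthetases, with no eIF2alpha kinase or partner among 12. Over all 5872 genes, 17.9% were lower by that size and 7.43% higher. Atf4 mRNA averaged 197.5 ± 162 FPKM in KO cells (SD, n = 3) and 215 ± 93.9 FPKM in WT cells (SD, n = 7). Ddit3 averaged 37.3 ± 44.5 FPKM in KO and 35.6 ± 22.0 FPKM in WT, and Mthfd2 39.2 ± 42.6 FPKM in KO and 128 ± 65.2 FPKM in WT. Eif2ak4 was at 0 to 6.87 FPKM in KO cells and 0 to 11.2 FPKM in WT cells. Depth behind these values is unknown.

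The genes whose pattern over the 20 embryo libraries was closest to each member were found by the root mean square difference of centred log2 values, among 2750 genes that averaged 10 FPKM or above (2751 for Trib3). For Phgdh they were Pcyt2, Wdr4, Xab2, Abcf2 and Cdc20, with Pcyt2, an enzyme of phosphatidylethanolamine synthesis, at a difference of 0.65, where the median gene was at 1.87. Psat1 was closest to Nub1 (0.47), Tbrg1, Cmtm6, Gcsh (0.55) and Rhoa, beside a median of 1.14. Shmt2 was closest to Ahsa1 (0.57), an HSP90 co-chaperone, then Gemin4, Uba2, Phb2 and Adsl, a purine synthesis enzyme, beside a median of 1.49. Asns had the least close neighbours, with Nans (1.02), Dhodh, Adk and Lta4h among the nearest, beside a median of 2.05, and Trib3 was closest to Ddx20 (0.63), Psmc4, Plaa, Dnaja2 and Rnf114. Trib3 was low in the ICM, at 0 to 6.37 FPKM, where log2(FPKM + 1) narrows differences. Between members, Psat1 and Trib3 had the smallest difference (1.01), little below the median gene, at 1.14 from either. Phgdh and Shmt2 came next (1.06), beside medians of 1.87 and 1.49, and Psat1 and Asns were farthest apart (1.94). These differences describe libraries that share their depth and scaling.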

How the data were processed

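RNA was measured in 33 of the 46 samples, 20 single-embryo and 13 single-cell libraries, and the chromatin samples were not analysed here. Per the labels' protocols, libraries were made with Smart-seq2 and Tn5 tagmentation. The authors deposited 1 table of FPKM values per gene. Trim Galore 0.6.4, STAR 2.7.3 and the mm10 build stand among the tools and builds of the submitters' processing notes, while the quantifier and annotation are not given in the sources used here. Of the table, 7182 genes were used, after leaving out gene names listed more than once. Read depth is unknown, and FPKM values summed to 212520 to 434504 per library. It is not known whether embryo and cell columns were made together, so levels were not tested between them.

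Genes that averaged 1 FPKM or above over the compared libraries were tested as log2(FPKM + 1), using R 4.3.3 and limma 3.58.1 with a mean trend and robust moderation, and Benjamini-Hochberg adjustment over all genes tested and a threshold of 0.05. All 5 members passed this filter in every comparison. A log2 change on this scale understates that of low genes. The script was tested on simulated data. E4.5 cells were compared without a test by the log2 ratio of group means, each plus 1. Named pathway genes were up to 3 called genes of a list each way with the smallest p in each embryo comparison, plus Atf4, Ddit3, Mthfd2 and Eif2ak4 in the comparisons of genotype (Psph was not analysed here), and Shmt1 in the ICM and Slc7a3 at E5.5 were added after their values were seen. A few genes that this rule names are not reported here. Members and lists were chosen with earlier results of these data known. Groups came from the sample labels. Alternatives were the pseudocount, the filter, quantile and median ratio scaling, array weights, a replicate block, a detected-gene covariate, 1 fit of 4 groups and leaving out libraries.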

Additional observations from a re-analysis of the deposited data

Results flagged for a closer look

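The KO effect on Asns was 4.17 higher on the log2 scale at E5.5 than in E3.5 ICM, and that on Psat1 2.55 higher, by the test of the difference itself (limma, adjusted p 0.0187 and 0.0053). Of 5917 tested genes, 14.0% were called in that test. Leaving out 1 library at a time, Asns was called in 18 of 20 fits and Psat1 in 20. Asns was higher than the WT mean in 3 of 3 KO E5.5 libraries and lower than it in 5 of 7 KO ICM libraries, and Psat1 higher in 3 of 3 and lower in 7 of 7. No share of all genes is given for these library counts, and the median change of all genes in KO ICM was -0.65. The KO E5.5 libraries also differ from WT in trophectoderm markers, whose part in these values was not tested. No single library was flagged as far from its group for any member in KO ICM, WT ICM and WT E4.5 epiblast cells. These were the only groups with 4 to 10 libraries, and the other groups were not examined this way. Trib3 in WT epiblast cell 7 was still low for its group, at 12.0 FPKM, beside 45.5 FPKM as the next lowest and a median of 104 FPKM.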

How the results depend on the processing

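In E3.5 ICM 4 members were called, against 2 with quantile normalization, 1 with median ratio scaling, 0 with the detected-gene covariate, 0 without the 3 KO libraries with the fewest detected genes, and 2 to 4 leaving out 1 library at a time. All genes called numbered 1540, against 708, 882, 0 and 405 in that order of settings, and 946 (without WT 1; 987 without WT 4) to 1875 leaving out 1 library. A pseudocount of 0.1 (Shmt2, adjusted p = 0.0501) and array weights (Trib3, 0.0653) each cost 1 call. At E5.5, 3 members and 2032 genes became 0 and 561 when 4 groups shared 1 fit, and 2 to 3 members and 1205 to 2185 genes leaving out 1 library, the fewest without WT 1 and 1293 without WT 2. The difference between stages kept 1 of 2 calls with a pseudocount of 0.1 and 1 with the covariate, and had 1 to 3 leaving out 1 library. Genes called were 827, against 520 and 446 in those settings, 1664 with array weights (3 members) and 1137 with a pseudocount of 5 (3 members), and 458 (without KO E5.5 1; 489 and 496 without WT E5.5 1 and 2) to 1034 leaving out 1 library. With the covariate, development had 1 call in WT (2143 genes, against 3388) and 1 in KO (1103 genes, against 2717), and leaving out 1 library gave 1 to 3 in WT and 4 in KO. Detected genes nearly or fully separated the groups compared in the ICM and in development, so the covariate cannot be told apart from those comparisons.

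In the tested comparisons, signs turned for changes that did not pass and for Shmt2 in the ICM (0.0265 with the covariate). Phgdh at E5.5 was -4.02e-05 with the covariate and -0.14 to 0.21 leaving out 1 library, and Trib3 -1.44 to 0.18. The difference for Shmt2 was -0.36 with a pseudocount of 5, -0.78 with quantile normalization, -0.17 with median ratio scaling, -1.21 with the covariate, -0.54 without the 3 KO libraries and -0.092 to 0.54 leaving out 1, and for Trib3 -0.11 with the covariate and -0.23 to 1.39 leaving out 1. Phgdh in WT development was -0.48 with the covariate. The cause of these moves was not tested.

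Replicate numbers are not stated to pair the libraries. Deviations of same-numbered KO and WT libraries correlated at -0.13 to 0.16 across genes in the ICM and -0.02 to 0.12 at E5.5. Such values cannot settle whether same-numbered embryos shared a litter or injection day. With a replicate block, the members called were 4 in the ICM (beside 1221 of 5443 genes), 3 at E5.5 (1950 of 5956), 2 for the difference (713 of 5917), 3 in WT development (2968 of 6022, Phgdh gained at 1.54, Psat1 lost at -0.57) and 4 in KO development (2439 of 5604). No paired analysis was possible in E4.5 cells because no test was made there, and the single WT primitive endoderm cell could not be left out. In epiblast cells 3 members were past the fold, and 2 without KO 2, KO 3 or WT 2. Unknown depth limits the values near 0, Trib3 above all.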

Other observations

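Of 72 genes in the amino acid pathway lists with a promoter window, 18 held the ATF4 core TGATGNAA (25.0%, against 2.75% of all table genes with a window). The lists were drawn partly from known ATF4 targets, so this share is a description. Aars, Gars, Iars, Tars and Yars, which encode tRNA synthetases, Got1, Pck2 and Pycr1 of amino acid synthesis and the transporters Slc1a4, Slc7a7 and Slc7a11 were among them. In KO ICM 7 of the 12 tested genes with the core were lower and none higher than in WT (median log2 change -1.18), beside 21 of 46 lower without it (median -1.10). At E5.5, 2 of 14 genes with the core were higher and 3 lower in KO, beside 8 of 47 higher and 1 lower without it. From ICM to E5.5 in WT, 10 of 14 with the core rose and 1 fell, beside 19 of 47 that rose and 11 that fell without it. Those 10 include the member Asns and the synthetase genes Aars, Gars, Iars, Tars and Yars, of a list in which 16 of 19 rose. Of all tested genes, 37.3% were higher and 18.9% lower in WT development. The shares were 3.44% and 24.9% in KO ICM and 15.6% and 18.5% in KO at E5.5. The member Trib3 also holds the core. List genes without a promoter window are left out of all these counts. Among them are most of the list genes called lower at E5.5 and hardly any of those called higher, so the counts do not describe the whole lists. No test of these counts was made.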
